A study of Mus musculus with 18 samples.

Results

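Imprinted genes are expressed mainly or only from the copy inherited from one parent. A set of 53 mouse genes with reported parent-of-origin expression, all outside the Peg3 domain and the Snrpn cluster, was followed in sorted bone marrow B cells with and without a working copy of Smchd1. Members were taken as the rows of that gene symbol in both deposited count tables, and all 53 had a row among the 25965 rows. The 18 libraries came from C57BL/6 mice aged 12 to 16 months, and the sort kept CD45.2+ B220+ Mac1- cells flushed from femurs. Control animals were Smchd1[del/+] Vav.Cre[T/+], with 1 deleted and 1 intact Smchd1 allele, and are called heterozygous. The del/del animals were Smchd1[del/del] Vav.Cre[T/+]. Both genotypes carried the Vav-Cre transgene, whose promoter is active in blood-forming cells and their descendants, so no library came from animals without Cre or without a deleted allele. Females gave 5 libraries of each genotype and males gave 4 of each, every one with its own animal number in the labels. The reads were not separated by parental allele, so the values show how much RNA a gene made and not which copy made it.

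At most imprinted domains a differentially methylated control region, set in the egg or the sperm, keeps one copy silent in cis, often through a long non-coding RNA or through blocked enhancer contact. SMCHD1 is a chromatin protein of the SMC family known for its part in X inactivation and in the silencing of some imprinted clusters and gene arrays. The zinc finger protein ZFP57 helps methylated control regions to survive the loss of methylation in the early embryo, and it binds the methylated form of the letters TGCCGC.

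The genes cover the domains of H19 and Igf2, Igf2r and Airn, Kcnq1, Dlk1 and Dio3, Grb10, Peg10, Mest, Plagl1 and Gnas, the retrogenes nested in a host gene, and genes imprinted singly or mainly in placenta. Promoter windows of 300 bases, running from 250 bases before to 50 after an annotated start, came from RefSeq (build GRCm38.p6) and were found for 42 of the 53 genes. H19, Cdkn1c, Kcnq1, Nap1l4, Rtl1, Peg10, Sgce, Impact, Trappc9, Kcnk9 and Dcn had none in the table. The letters TGCCGC were searched on both strands, where the other strand reads GCGGCA. They were present in 17 of the 68 windows of these genes (25%) and in 3813 of all 32841 windows (11.6%). Genes with several annotated starts had several windows, some of them overlapping, and each window was counted. On the given strand alone the shares were 10.3% and 5.65%. CpG dinucleotides were also denser in the windows of these genes, with a median of 16.5 against 7 per window, and the motif itself holds a CpG. The median ratio of observed to expected CpG was 0.640 for the imprinted genes against 0.384 for all windows, and 55.9% against 35.8% of windows had a ratio above 0.6.

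Sequences are shown for 4 genes whose values recur in the results. Grb10, an adaptor that restrains insulin and IGF receptor signalling, is expressed from one or the other parental copy depending on the promoter used. Its 2 windows (chr11:12037371-12037670 and chr11:12027922-12028221, minus strand) differed in CpG content, with ratios of observed to expected CpG of 0.973 and 0.446. Nnat (chr2:157559828-157560127, plus strand) and Mcts2 (chr2:152686898-152687197, plus strand) are paternally expressed genes that lie inside the span of the host genes Blcap and H13. Sfmbt2 (chr2:10370201-10370500, plus strand) encodes a Polycomb-group protein. Capitals mark TGCCGC on either strand, the match is a description of letters and not of binding, and each line reads 5′ to 3′ along the gene.
Grb10 upstream start: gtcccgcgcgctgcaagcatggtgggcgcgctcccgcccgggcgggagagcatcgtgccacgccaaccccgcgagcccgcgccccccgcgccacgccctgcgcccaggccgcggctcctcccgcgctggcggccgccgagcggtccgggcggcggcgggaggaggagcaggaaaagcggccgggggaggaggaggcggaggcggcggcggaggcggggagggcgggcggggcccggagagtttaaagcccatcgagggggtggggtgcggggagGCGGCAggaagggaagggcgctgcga
Grb10 downstream start: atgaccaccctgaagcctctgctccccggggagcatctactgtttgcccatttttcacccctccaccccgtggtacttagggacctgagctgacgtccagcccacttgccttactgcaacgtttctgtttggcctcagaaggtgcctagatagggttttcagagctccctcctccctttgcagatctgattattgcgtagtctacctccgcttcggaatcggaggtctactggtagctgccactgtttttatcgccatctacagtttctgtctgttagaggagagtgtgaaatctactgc
Nnat: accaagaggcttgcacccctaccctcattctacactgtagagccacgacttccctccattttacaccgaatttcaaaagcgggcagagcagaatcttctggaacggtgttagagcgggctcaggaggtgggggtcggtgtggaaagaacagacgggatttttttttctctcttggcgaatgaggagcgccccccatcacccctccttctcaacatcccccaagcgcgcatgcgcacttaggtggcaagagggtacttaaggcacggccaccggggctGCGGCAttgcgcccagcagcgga
Mcts2: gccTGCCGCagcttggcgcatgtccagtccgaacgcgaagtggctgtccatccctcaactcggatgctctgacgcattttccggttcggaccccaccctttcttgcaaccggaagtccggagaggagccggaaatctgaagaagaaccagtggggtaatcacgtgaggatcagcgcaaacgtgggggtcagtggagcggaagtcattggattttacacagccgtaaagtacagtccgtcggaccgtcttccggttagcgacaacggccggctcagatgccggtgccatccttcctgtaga
Sfmbt2: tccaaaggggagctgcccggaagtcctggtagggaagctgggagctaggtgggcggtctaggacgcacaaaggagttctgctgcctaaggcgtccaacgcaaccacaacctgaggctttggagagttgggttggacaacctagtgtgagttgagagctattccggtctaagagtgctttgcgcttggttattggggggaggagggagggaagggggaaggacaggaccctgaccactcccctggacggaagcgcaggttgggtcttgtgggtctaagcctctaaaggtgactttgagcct
The upstream Grb10 window, Nnat and Mcts2 each held 1 match, and the downstream Grb10 window and this Sfmbt2 window held none. The Mcts2 window had 25 CpG and this Sfmbt2 window had 9. Another Sfmbt2 window (chr2:10372186-10372485), not shown, had 16 CpG, a ratio of observed to expected CpG of 0.748 and no match.

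Total counts per library ranged from 9788112 to 29405395. Values are given as CPM, the reads of a gene scaled to the depth of its library with TMM factors, which allow for differences in library composition. Smchd1 itself stood at 250.1 ± 16.2 CPM (SD, n = 5) in female heterozygous and 142 ± 18.4 CPM (SD, n = 5) in female del/del libraries, and at 294 ± 21.4 and 176 ± 15.3 CPM (SD, n = 4 each) in the male groups. The fall passed the edgeR quasi-likelihood test in females (log2 fold change -0.82, adjusted p = 0.00119) and in males (-0.74, adjusted p = 0.00888). B cell markers summed to between 9031 and 11377 CPM and none of the 12 was at 0 in any group. Of the 12, 5 had a positive log2 fold change of del/del over heterozygous in females (median -0.0012) and 1 in males (median -0.05). Without male heterozygous library 2 the male count was 0 (median -0.09), and no B cell gene was called. Markers of other marrow cells were present too, and 3 of the lists that leaned the same way in both sexes are described first. Of 15 plasmacytoid dendritic cell genes, several of which B cells also express, 15 had a positive log2 fold change of del/del over heterozygous in females (median 0.40) and 12 in males (median 0.43), while their summed level overlapped between genotypes, at 3571 to 4885 against 3712 to 5180 CPM in females and 3033 to 3593 against 3002 to 3452 CPM in males. One of them, Il3ra, a cytokine receptor gene, was called over both sexes (log2 fold change 0.55, SE 0.0832, adjusted p = 0.00111, edgeR). Of 14 erythroid genes 1 was positive in each sex (medians -0.79 and -0.63), with sums of 719 to 1167 against 576 to 1048 CPM in females and 612 to 1442 against 648 to 749 CPM in males, where 3 were positive and the median was -0.13 without heterozygous library 2. Of 14 tested myeloid genes 9 were positive in females and 14 in males (medians 0.20 and 0.27), and the 15 listed summed to 1503 to 3553 against 1003 to 5006 CPM in females and 1786 to 3435 against 1880.1 to 5918 CPM in males. None of the markers of these 3 lists was at 0 in any group, and no erythroid or myeloid gene was called. Of 8 tested stroma and bone genes 1 was positive over both sexes (median -0.24), or 3 (median -0.07) without male heterozygous library 2. The part of these cells' RNA in the fold changes of the imprinted genes was not tested. In such bulk samples fewer cells of a type and less RNA per cell cannot be told apart.

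The imprinted genes ranged from abundant transcripts to genes without a read. Levels of different genes are compared only as CPM per kilobase of annotated exon (GENCODE M21, GRCm38). Whether the deposited counts cover exons or whole gene spans is not given in the sources used here. Gnas, which encodes the stimulatory G protein alpha subunit, had the highest mean over the 18 libraries, 73.7 CPM per kilobase (range 65.4 to 82.3). Commd1, a regulator of copper handling and NF-kB, followed at 69.0 (51.5 to 88.4), and the histone chaperone gene Nap1l4 at 63.3 (53.3 to 74.6). The ranges of these 3 genes overlapped. Cd81, a tetraspanin membrane protein, stood at 43.4 (34.6 to 53.9). H13, Copg2, Tssc4 and Tspan32 had means of 20.6, 18.2, 16.3 and 12.5 CPM per kilobase. Of these 8 genes all but Gnas are reported as expressed from the maternal copy, and that imprinting is mostly described in placenta, embryo or brain rather than in blood.

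**Figure D1:**
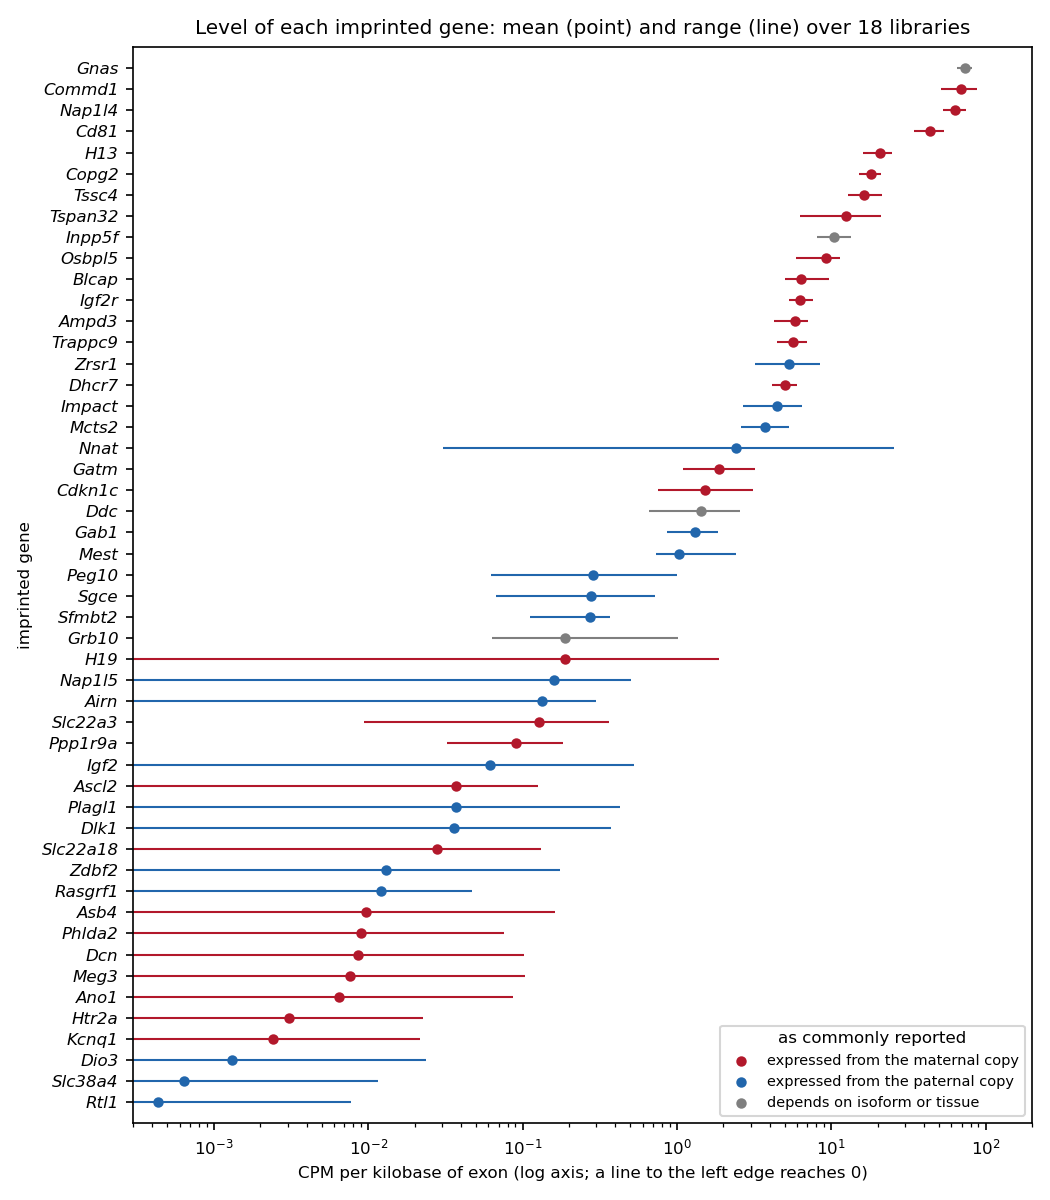
Mean (point) and range (line) of CPM per kilobase of exon over the 18 libraries, on a log axis, for the imprinted genes with at least 1 read. Colours give the parental copy the gene is commonly reported to be expressed from. Gnas, Commd1 and Nap1l4 stand at the top with overlapping ranges, and the line of Nnat, from 0.0305 to 25.4, is the longest of the genes with reads in every library.

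The 8 abundant genes differed little between genotypes. Gnas stood at 805, 882, 817, 921 and 824 CPM in female heterozygous libraries 1 to 5 and 788, 907, 830.1, 851 and 815 CPM in female del/del libraries 1 to 5. Its male values were 732, 860.4, 753 and 876 CPM in male heterozygous libraries 1 to 4 and 757, 805, 799 and 826 CPM in male del/del libraries 1 to 4, so the genotypes overlapped in both sexes. Nap1l4 was at 190.1, 216, 195, 231 and 204 CPM in female heterozygous libraries 1 to 5 and 189.3, 203.2, 188, 201.8 and 165 CPM in female del/del libraries 1 to 5. In males Nap1l4 was at 178, 207, 189.1 and 199.98 CPM in male heterozygous libraries 1 to 4 and 188, 201, 188 and 189.2 CPM in male del/del libraries 1 to 4. Its log2 fold change of del/del over heterozygous was -0.13 (SE 0.0821) in females and -0.01 (SE 0.0657) in males, with overlapping groups. Cd81 stood at 99.5, 116, 121, 129.7 and 118 CPM in female heterozygous libraries 1 to 5 and 105, 105, 109, 118 and 108 CPM in female del/del libraries 1 to 5. For males, Cd81 values were 129.8, 143, 132 and 155 CPM in male heterozygous libraries 1 to 4 and 130.4, 138, 144 and 146 CPM in male del/del libraries 1 to 4. The difference was -0.10 (SE 0.0788) in females and -0.01 (SE 0.0738) in males on the log2 scale. Tspan32 and Tssc4, a tetraspanin of blood cells and a neighbour in the same domain, also overlapped between the genotypes of each sex. Tspan32 was at 47.7, 42.3, 62.1, 62.1 and 56.7 CPM in female heterozygous libraries 1 to 5 and 60.4, 39.3, 62.5, 53.6 and 89.7 CPM in female del/del libraries 1 to 5. Male libraries had Tspan32 at 108, 77.9, 115 and 94.5 CPM in male heterozygous libraries 1 to 4 and 105, 83.4, 130.5 and 111 CPM in male del/del libraries 1 to 4. Its genotypes overlapped in each sex. Tssc4 was at 30.1, 28.9, 35.4, 31.6 and 39.2 CPM in female heterozygous libraries 1 to 5 and 27.6, 35.3, 31.8, 35.3 and 31.4 CPM in female del/del libraries 1 to 5. Male libraries had Tssc4 at 28.2, 27.5, 27.6 and 23.7 CPM in male heterozygous libraries 1 to 4 and 26.5, 28.5, 28.5 and 23.6 CPM in male del/del libraries 1 to 4. Part of the exons of Tssc4 (11.9%) is shared with Trpm5 on the other strand.

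At the other end, 3 genes, Calcr, Kcnk9 and Slc22a2, had 0 reads in every library. A count of 0 allows up to 3 reads, or 0.0270 CPM over the 5 female heterozygous and 0.05002 CPM over the 4 male heterozygous libraries, for counting error only. Rtl1, Dio3 and Slc38a4 had 1 read each in all libraries together, Kcnq1 and Phlda2 had 4, Htr2a had 7, Asb4 had 14, Ano1 had 15, Slc22a18 had 16, Dcn had 18 and Ascl2 had 20. After a filter on low counts (edgeR's filterByExpr, minimum count 10), 31 of the 53 genes could be tested in females, 30 in males and 32 over both sexes. The tested gene with the fewest reads was Slc22a3, with 105 reads in the female and 91 in the male libraries. Of the genes that failed the filter, Nap1l5 had the most reads in females, 57, and H19 the most in males, 128. The filter asks for enough reads in several libraries, and the H19 reads in males came mainly from 1 library.

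Male heterozygous library 2 stood apart for these genes. Of the 53 genes, 17 had their highest value of all 18 libraries in it. Of these 17, 7 were among the 32 imprinted genes with enough reads to be tested over both sexes (21.9%), and the other 10 had few reads. Of all 14017 genes tested over both sexes, 618 (4.41%) had their highest value there. H19, the maternally expressed non-coding RNA beside Igf2, had 94 of its 168 reads in this library, at 4.64 CPM against 1.04 CPM in the next highest, female heterozygous library 2. Igf2, the fetal growth factor gene, had 61 of 130 reads there. Meg3 and Dlk1, the maternal non-coding RNA and the paternal Notch-like ligand gene of one domain, had 38 of 52 and 43 of 78 reads there. Plagl1, a zinc finger gene, had 68 of 105, Zdbf2 had 45 of 62, Asb4 had 13 of 14, Ano1 had 11 of 15 and Dcn, a proteoglycan of connective tissue, had 12 of 18. The 1 read of Rtl1 and the 1 read of Slc38a4 were also in this library. Exons of Igf2 are shared over 62.8% of their length with the annotated gene Gm49394 on the same strand, so its reads could belong to either.

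Several genes with reads in every library showed the same pattern. Nnat, which encodes the small membrane protein neuronatin, stood at 0.976, 0.864, 0.609, 0.0558 and 0.638 CPM in female heterozygous libraries 1 to 5 and 0.980, 1.01, 0.888, 0.370 and 2.15 CPM in female del/del libraries 1 to 5. Its male values were 2.77, 46.4, 3.88 and 1.09 CPM in male heterozygous libraries 1 to 4 and 0.650, 7.95, 6.16 and 2.62 CPM in male del/del libraries 1 to 4. Male heterozygous library 2 was 5.84-fold above the next library, male del/del library 2. Mest, an alpha/beta hydrolase gene, was at 4.57, 3.89, 3.25, 4.69 and 3.92 CPM in female heterozygous libraries 1 to 5 and 4.23, 4.004, 3.01, 4.11 and 4.11 CPM in female del/del libraries 1 to 5. Among males, Mest was at 3.70, 9.49, 3.42 and 2.89 CPM in male heterozygous libraries 1 to 4 and 2.97, 3.95, 4.12 and 3.33 CPM in male del/del libraries 1 to 4. Grb10 was 3.80-fold and Peg10 2.17-fold above the next highest library there. Cdkn1c was at 6.37 CPM, 1.13-fold above male del/del library 2.

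**Figure D2:**
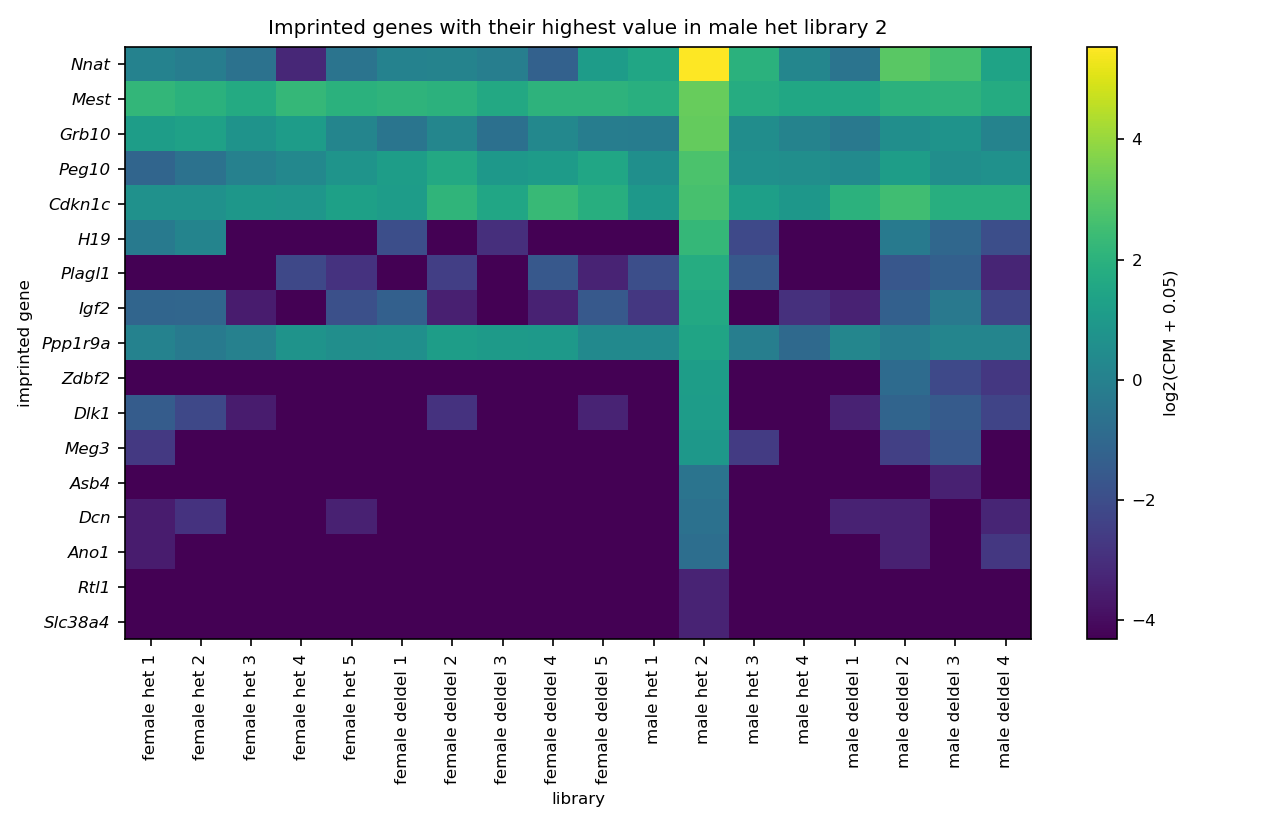
Heat map of log2(CPM + 0.05) of the 17 imprinted genes whose highest value was in male heterozygous library 2 (rows) in the 18 libraries (columns, "deldel" for del/del). The column of male het 2 is the brightest in every row, and male del/del libraries 2 and 3 show weaker values of H19, Igf2, Dlk1, Meg3 and Nnat.

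The same library differed in markers of other cells. A list of 15 neural genes, written after the values were seen, summed to 120.5 CPM in it and to 0.223 to 12.8 CPM in the other 17 libraries. All 15 had reads there, with Dcx, a gene of migrating neurons, at 17.8 CPM and 360 reads. The next highest neural sums were 12.8 and 12.2 CPM, in male del/del libraries 3 and 2. In female heterozygous libraries 10 of the 15 were at 0 and in female del/del libraries 8, Dcx among them in both. Stroma and bone markers summed to 39.6 CPM in male heterozygous library 2 and to 9.56 to 28.9 CPM elsewhere, and its erythroid sum of 1442 CPM was the highest as well. Over the 22 imprinted genes that could not be tested in females, it held 401 reads, and the other male libraries held 11 to 72. The female libraries held 11 to 63, which the filter that chose these genes keeps low. The part of such RNA in the imprinted genes' values was not tested. Calls of the edgeR test and the main fold changes below that use male libraries are therefore given with all libraries and without this one. This library was singled out after its values, those of these genes among them, had been seen.

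In females, no imprinted gene passed the threshold of an adjusted p under 0.05 (Benjamini-Hochberg over all genes tested, edgeR quasi-likelihood test). Over all 13501 genes tested 34 did, which is 0.252%. At an unadjusted p under 0.05 there were 5 of 31 imprinted genes (16.1%) against 4.3% of all genes tested. Of these 5, Peg10, Cdkn1c, Sgce and Ppp1r9a had the higher mean in del/del and Grb10 the lower. DESeq2 called 1 imprinted gene, Peg10 (adjusted p = 0.0451), and limma voom called none. The share of all genes called by DESeq2 is not given here, so this count cannot be set against it. The median log2 fold change of the 31 genes was 0.07 against -0.0044 over all genes, and 16 of 31 were positive (51.6%, against 48.8%).

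In males, again no imprinted gene was called, beside 16 of 13413 genes (0.119%). Unadjusted p-values under 0.05 were found for 2 of 30 (6.67%, against 3.34% of all genes), Sgce and Sfmbt2, both with the higher mean in del/del. DESeq2 and limma voom called none, though DESeq2 gave no adjusted p for Grb10 and so could not call it. Without male heterozygous library 2 the edgeR quasi-likelihood count was still 0, beside 22 of 13521 genes (0.163%), and 3 of 30 had an unadjusted p under 0.05 (10%, against 3.24%). The third gene was Cdkn1c. The count of positive fold changes moved from 14 (50.6% of all genes) to 21 of 30 (49.2% of all genes) when the library was left out, and their median from -0.01 to 0.05. Groups that did not overlap, with del/del higher, were found for 3 of 30 imprinted genes with all male libraries (Sgce, Sfmbt2 and Osbpl5, 1.44% of all genes) and for 4 of 30 without that library (Cdkn1c in addition, 2.68% of all genes).

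Over both sexes, with sex as a term, no imprinted gene was called among 32 tested, beside 78 of 14017 genes (0.556%). DESeq2 and limma voom called none either, though DESeq2 gave no adjusted p for Grb10 and Peg10 and so could not call them. At an unadjusted p under 0.05 there were 6 (18.8%, against 6.76%): Sgce, Sfmbt2 and Cdkn1c higher and Grb10, Gab1 and H19 lower in del/del. Without male heterozygous library 2, Cdkn1c was called, beside 115 of 14165 genes (0.812%), and 8 of 32 had an unadjusted p under 0.05 (25%, against 6.27%). The interaction of sex and genotype gave 0 calls over all 14017 genes (0%) and had an unadjusted p under 0.05 for 1.45% of them. Peg10 was the 1 imprinted gene with such a p, and DESeq2 and limma voom called no imprinted gene. Without male heterozygous library 2, the interaction again gave 0 calls over all 14165 genes. It had such a p for 3 of 32 imprinted genes (9.38%, against 1.28%), H19, Grb10 and Peg10. The median absolute log2 fold change over both sexes was 0.15 for the 32 genes against 0.08 for all genes, and 22 of the 32 lay within 0.25 of 0. Without male heterozygous library 2 it was 0.12 against 0.08, and 21 of the 32 lay within 0.25.

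**Figure D3:**
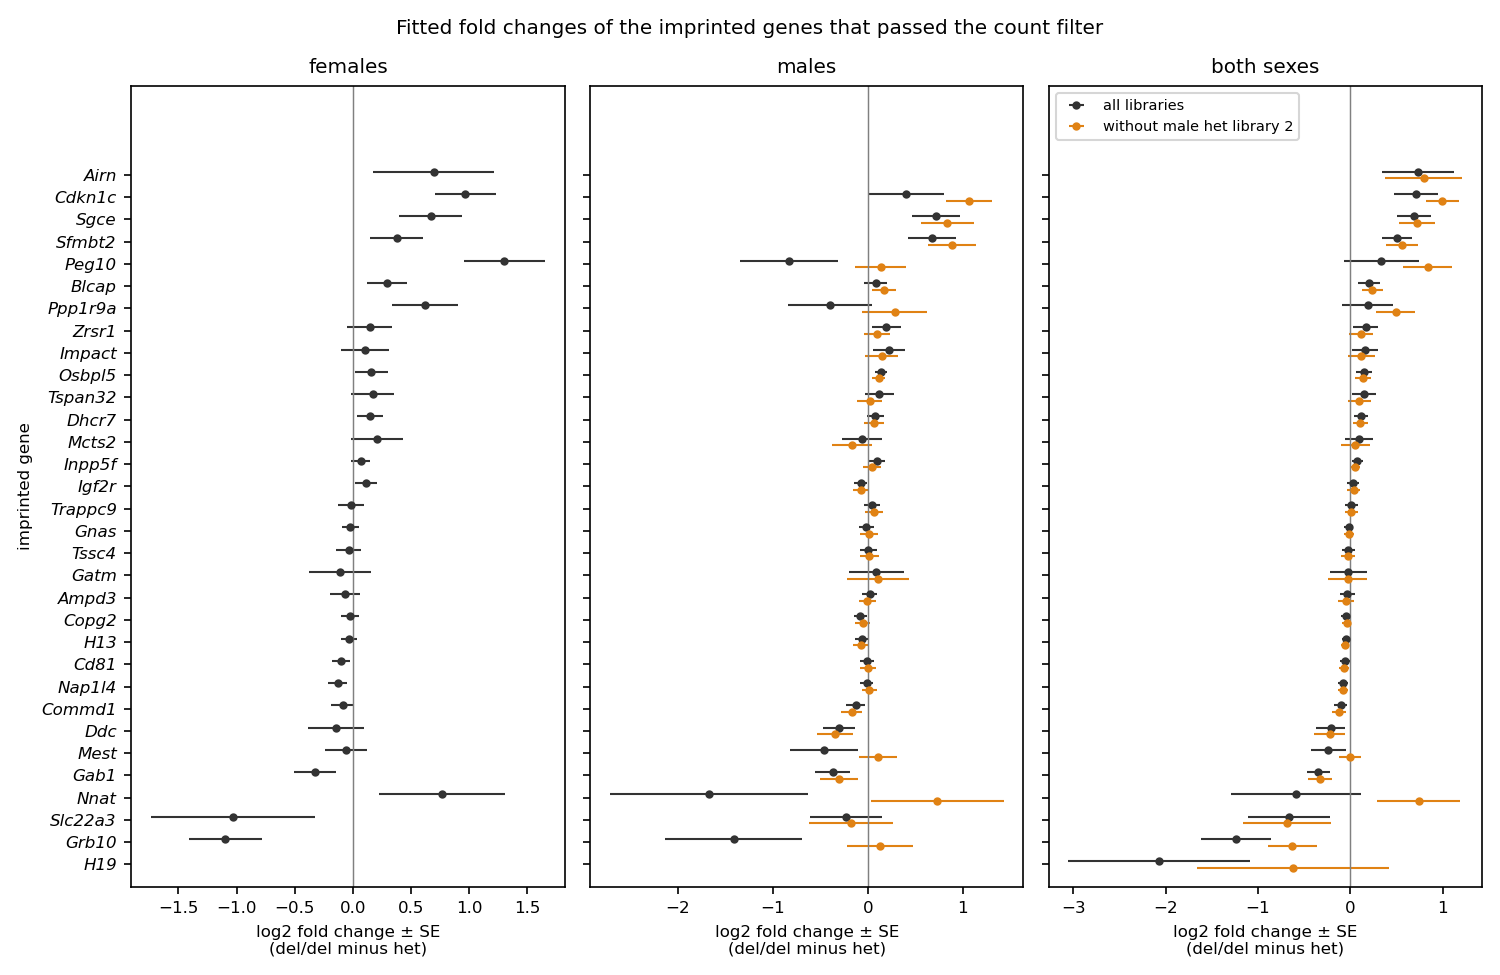
Log2 fold change of del/del over heterozygous with its standard error (SE), from the edgeR fits, for the imprinted genes that passed the filter, in females, in males and over both sexes. Dark points use all libraries and orange points leave out male heterozygous library 2. Most genes lie near 0, and Grb10, Peg10, Nnat, Mest and Ppp1r9a are among those that cross from below to above 0 in males when the library is left out.

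Cdkn1c (ENSMUSG00000037664, mm10 chromosome 7, 143458350 to 143461050, minus strand) encodes p57, an inhibitor of cyclin-dependent kinases, and is the growth-restraining maternal gene of the Kcnq1 domain. It stood at 1.53, 1.56, 1.83, 1.79 and 2.38 CPM in female heterozygous libraries 1 to 5 and 2.11, 4.34, 2.82, 4.99 and 3.58 CPM in female del/del libraries 1 to 5. The means were 1.82 ± 0.343 and 3.57 ± 1.15 CPM (SD, n = 5 each), with 1 del/del library, the first, inside the heterozygous range. In males it stood at 1.85, 6.37, 2.32 and 1.80 CPM in male heterozygous libraries 1 to 4 and 4.04, 5.64, 3.59 and 3.54 CPM in male del/del libraries 1 to 4. All 4 male del/del libraries were above heterozygous libraries 1, 3 and 4, and library 2 was above all of them. Its log2 fold change was 0.97 (SE 0.262) in females, with an adjusted p of 0.368 in the edgeR quasi-likelihood test and 0.0648 in DESeq2. In males it was 0.40 (SE 0.395, adjusted p = 0.9998) with all libraries and 1.06 (SE 0.244, adjusted p = 0.361) without heterozygous library 2 in the same edgeR test. Over both sexes it was 0.71 (SE 0.240, 95% interval 0.21 to 1.22, adjusted p = 0.415, edgeR) with all libraries. Without male heterozygous library 2 it was 0.9997 (SE 0.178, 95% interval 0.63 to 1.37, edgeR adjusted p = 0.00466). The adjusted p without that library was 3.363e-05 with DESeq2, 0.0218 with limma voom and 0.00375 with RLE size factors in edgeR. Since the library holds the highest heterozygous value of this gene, leaving it out favours a difference. The interaction of sex and genotype was -0.57 (SE 0.475) with and 0.10 (SE 0.374) without it. Exons of Cdkn1c are shared over 30.7% of their length with Gm44732 on the other strand, and without a stated strand setting those reads could not be told apart.

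The other tested genes of the Kcnq1 domain had smaller fold changes. Osbpl5, a lipid transfer protein gene at the far end, was at 39.1, 29.03, 37.1, 41.9 and 40.1 CPM in female heterozygous libraries 1 to 5 and 39.7, 37.6, 44.3, 32.95 and 55.3 CPM in female del/del libraries 1 to 5. Its male values were 53.6, 48.03, 51.1 and 48.1 CPM in male heterozygous libraries 1 to 4 and 56.1, 53.7, 56.3 and 54.7 CPM in male del/del libraries 1 to 4, where the genotypes did not overlap. The male difference was small, 0.14 on the log2 scale (SE 0.0621), or 0.11 (SE 0.0705) without heterozygous library 2. In females it was 0.16 (SE 0.140) with overlap, or 0.04 without female del/del library 5. Cd81, Tspan32, Tssc4 and Nap1l4 are described above, and Kcnq1, Phlda2, Slc22a18 and Ascl2 had too few reads to test. Of the 10 genes of this domain, 6 were tested in each sex.

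**Figure D4:**
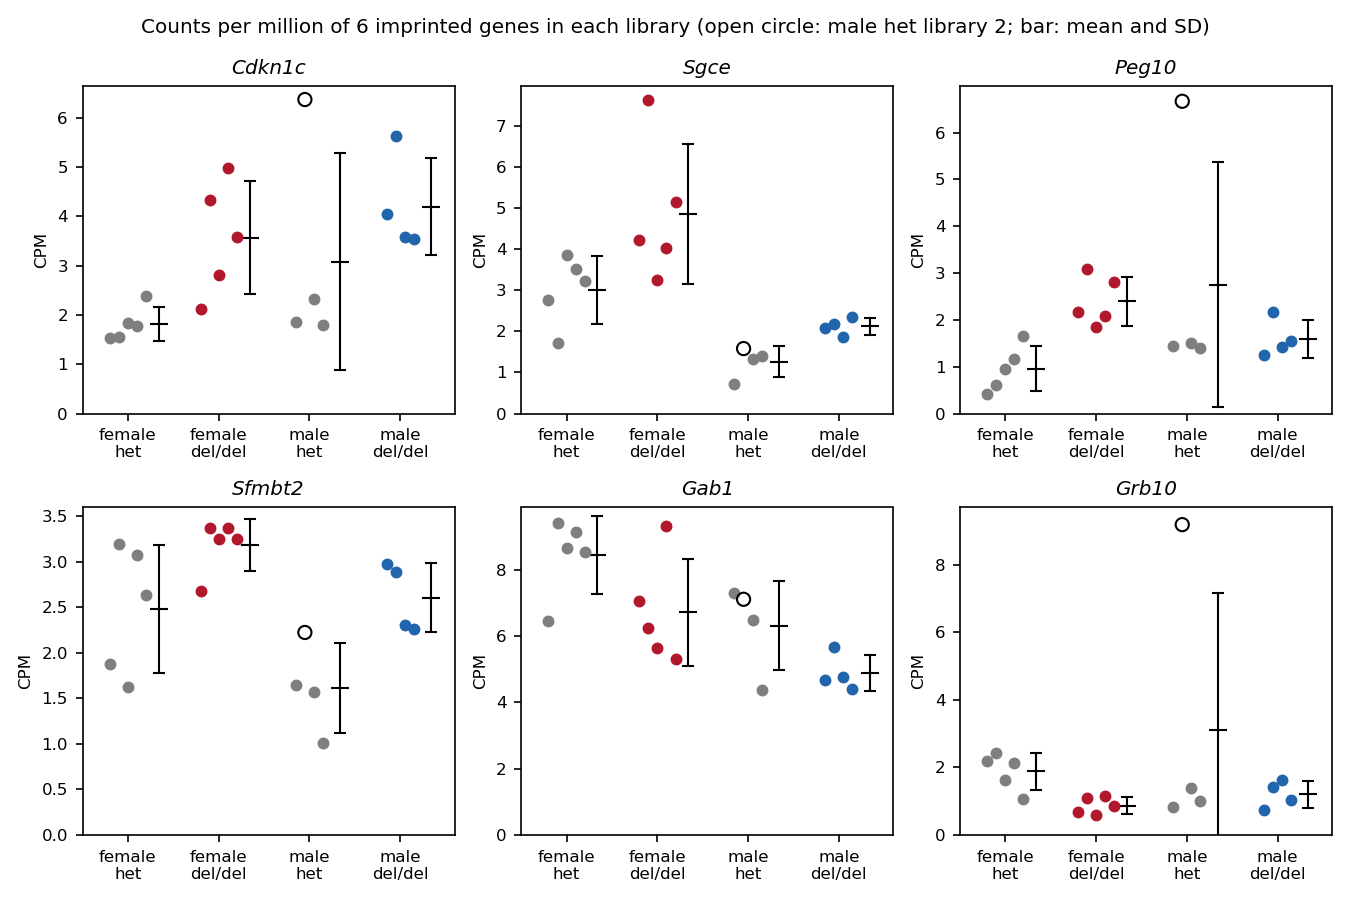
CPM of Cdkn1c, Sgce, Peg10, Sfmbt2, Gab1 and Grb10 in each library by group, with axes from 0. The open circle is male heterozygous library 2, and the bars give the group mean and SD over all libraries of the group, cut at 0 where they would run below. The open circle is the highest point for Cdkn1c, Peg10 and Grb10 and lies among the others for Sgce, Sfmbt2 and Gab1.

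The Peg10 domain held 5 of the genes. Sgce (ENSMUSG00000004631, mm10 chromosome 6, 4674350 to 4747204, minus strand) encodes epsilon-sarcoglycan, a membrane protein, and starts next to Peg10 on the opposite strand. It stood at 2.75, 1.73, 3.86, 3.52 and 3.23 CPM in female heterozygous libraries 1 to 5 and 4.23, 7.63, 3.24, 4.02 and 5.16 CPM in female del/del libraries 1 to 5. The means were 3.02 ± 0.827 and 4.86 ± 1.69 CPM (SD, n = 5 each), with overlap. In males it stood at 0.719, 1.58, 1.33 and 1.41 CPM in male heterozygous libraries 1 to 4 and 2.09, 2.18, 1.86 and 2.36 CPM in male del/del libraries 1 to 4. All 4 del/del libraries were above all 4 heterozygous ones. Male heterozygous library 2 was the highest of its group but below the del/del range. For Sgce the fold change on the log2 scale was 0.67 (SE 0.269, adjusted p = 0.975, edgeR) in females, 0.72 (SE 0.251, adjusted p = 0.9998, edgeR) in males and 0.69 (SE 0.185, adjusted p = 0.152, edgeR) over both sexes. Without male heterozygous library 2 the male value was 0.84 (SE 0.274) and that over both sexes 0.72 (SE 0.195), with an adjusted p of 0.130 in edgeR, 0.342 in limma voom and 0.0361 in DESeq2.

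Peg10 (ENSMUSG00000092035, mm10 chromosome 6, 4747306 to 4760517, plus strand) is a paternally expressed gene derived from a retrotransposon and needed for the placenta. In females it stood at 0.418, 0.605, 0.948, 1.17 and 1.66 CPM in female heterozygous libraries 1 to 5 and 2.17, 3.08, 1.85, 2.08 and 2.82 CPM in female del/del libraries 1 to 5. The genotypes did not overlap, as for 0.83% of all genes tested in females, and Peg10 was the 1 imprinted gene so. The means were 0.961 ± 0.489 and 2.40 ± 0.522 CPM (SD, n = 5 each) and the log2 fold change was 1.31 (SE 0.350, 95% interval 0.55 to 2.06, adjusted p = 0.346, edgeR). In males it stood at 1.44, 6.67, 1.51 and 1.41 CPM in male heterozygous libraries 1 to 4 and 1.25, 2.18, 1.42 and 1.54 CPM in male del/del libraries 1 to 4. Apart from heterozygous library 2 the male groups overlapped closely, with a log2 fold change of -0.83 (SE 0.516) with and 0.13 (SE 0.272) without that library. Over both sexes Peg10 was at 0.34 (SE 0.403) with that library and 0.84 (SE 0.266, adjusted p = 0.306, edgeR) without it. The interaction of sex and genotype was -2.14 (SE 0.637, unadjusted p = 0.00334, adjusted p = 0.9999, edgeR) with it and -1.17 (SE 0.483, unadjusted p = 0.0262, adjusted p = 0.99997, edgeR) without it. Ppp1r9a, which encodes neurabin, an actin-binding scaffold of protein phosphatase 1, stood at 0.976, 0.778, 0.948, 1.62 and 1.40 CPM in female heterozygous libraries 1 to 5 and 1.44, 2.19, 2.01, 1.94 and 1.24 CPM in female del/del libraries 1 to 5. For males Ppp1r9a was at 1.23, 2.67, 0.870 and 0.469 CPM in male heterozygous libraries 1 to 4 and 1.11, 0.844, 1.06 and 1.08 CPM in male del/del libraries 1 to 4. Its log2 fold change was 0.62 (SE 0.286) in females, and -0.40 (SE 0.444) with and 0.28 (SE 0.341) without library 2 in males. Over both sexes Ppp1r9a was at 0.19 (SE 0.278) with and 0.49 (SE 0.213, adjusted p = 0.706, edgeR) without that library. Asb4 and Calcr could not be tested.

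Among the genes imprinted singly, Sfmbt2 (ENSMUSG00000061186, mm10 chromosome 2, 10370510 to 10595253, plus strand) stood at 1.88, 3.20, 1.62, 3.07 and 2.64 CPM in female heterozygous libraries 1 to 5 and 2.68, 3.37, 3.24, 3.37 and 3.25 CPM in female del/del libraries 1 to 5. Male values were 1.64, 2.22, 1.57 and 1.02 CPM in male heterozygous libraries 1 to 4 and 2.97, 2.89, 2.30 and 2.26 CPM in male del/del libraries 1 to 4, where all del/del libraries were above all heterozygous ones. Sfmbt2 differed on the log2 scale by 0.38 (SE 0.231) in females, 0.67 (SE 0.255, adjusted p = 0.9998, edgeR) in males and 0.50 (SE 0.164, adjusted p = 0.378, edgeR) over both sexes. It was 0.89 (SE 0.255) in males and 0.56 (SE 0.169) over both sexes without male heterozygous library 2. Gab1 (ENSMUSG00000031714, mm10 chromosome 8, 80764434 to 80880479, minus strand), an adaptor of receptor tyrosine kinases imprinted in placenta, stood at 6.45, 9.42, 8.66, 9.16 and 8.55 CPM in female heterozygous libraries 1 to 5 and 7.07, 6.24, 5.64, 9.34 and 5.31 CPM in female del/del libraries 1 to 5. The male libraries were at 7.30, 7.11, 6.49 and 4.37 CPM in male heterozygous libraries 1 to 4 and 4.69, 5.68, 4.78 and 4.41 CPM in male del/del libraries 1 to 4. In females 4 of the 5 del/del libraries lay below 4 of the 5 heterozygous ones, and the genotypes overlapped in both sexes. On the log2 scale Gab1 differed by -0.33 (SE 0.181) in females, -0.37 (SE 0.184) in males and -0.35 (SE 0.124, adjusted p = 0.504, edgeR) over both sexes. The last 2 values were -0.30 (SE 0.201) and -0.32 (SE 0.131) without male heterozygous library 2. Impact, a regulator of the GCN2 stress kinase, stood at 20.9, 15.1, 16.6, 25.1 and 21.5 CPM in female heterozygous libraries 1 to 5 and 17.9, 13.7, 31.2, 19.4 and 24.8 CPM in female del/del libraries 1 to 5. In males Impact was at 21.8, 19.9, 29.5 and 22.3 CPM in male heterozygous libraries 1 to 4 and 27.8, 20.1, 28.04 and 33.2 CPM in male del/del libraries 1 to 4. Its log2 fold change was 0.16 (SE 0.143) over both sexes and 0.12 (SE 0.146) without male heterozygous library 2, with overlap in each sex.

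Grb10 (ENSMUSG00000020176, mm10 chromosome 11, 11930508 to 12038683, minus strand) had the most negative fold change in females with all libraries, followed by Slc22a3. It stood at 2.20, 2.42, 1.62, 2.12 and 1.06 CPM in female heterozygous libraries 1 to 5 and 0.671, 1.10, 0.579, 1.16 and 0.860 CPM in female del/del libraries 1 to 5. The means were 1.88 ± 0.543 and 0.872 ± 0.253 CPM (SD, n = 5 each), and heterozygous library 5 lay among the del/del libraries. The log2 fold change was -1.10 (SE 0.313, adjusted p = 0.446, edgeR), and 0.159 was the adjusted p in DESeq2. In males it stood at 0.822, 9.19, 1.39 and 1.02 CPM in male heterozygous libraries 1 to 4 and 0.743, 1.42, 1.64 and 1.03 CPM in male del/del libraries 1 to 4. The fold change there was -1.41 (SE 0.718) with all libraries and 0.13 (SE 0.348) without heterozygous library 2, so its direction turned. Over both sexes it was -1.24 (SE 0.382, adjusted p = 0.307, edgeR) with and -0.63 (SE 0.266, adjusted p = 0.683, edgeR) without that library. The interaction of sex and genotype of Grb10 was -0.32 with it, and without it 1.23 (SE 0.477, unadjusted p = 0.0191, adjusted p = 0.99997, edgeR). Reads of all Grb10 transcripts are summed in 1 row, so the maternal and paternal transcripts could not be compared. The 2 windows shown above were not assigned to a parental copy. Its neighbour Ddc, which encodes the decarboxylase of aromatic amino acids, stood at 8.96, 9.76, 9.003, 7.98 and 8.04 CPM in female heterozygous libraries 1 to 5 and 6.91, 11.4, 7.45, 10.1 and 3.68 CPM in female del/del libraries 1 to 5. Male values of Ddc were 4.21, 4.10, 4.35 and 4.92 CPM in male heterozygous libraries 1 to 4 and 4.18, 3.69, 2.92 and 3.39 CPM in male del/del libraries 1 to 4. Ddc differed by -0.14 (SE 0.242) in females, or 0.04 without female del/del library 5, and by -0.31 (SE 0.169) in males on the log2 scale. Without heterozygous library 2 the male value was -0.35 (SE 0.189) and the male genotypes did not overlap, as for 1.26% of all genes in that direction.

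The 5 pairs of nested or antisense partners were compared because a paternally expressed transcript lies inside or across a gene reported as maternally expressed. Mcts2, a retrogene copy of a translation factor gene, stood at 2.47, 4.49, 3.72, 3.41 and 2.72 CPM in female heterozygous libraries 1 to 5 and 4.85, 2.82, 3.71, 4.58 and 3.35 CPM in female del/del libraries 1 to 5. For males Mcts2 was at 3.91, 2.52, 3.36 and 3.05 CPM in male heterozygous libraries 1 to 4 and 2.97, 3.11, 3.77 and 2.36 CPM in male del/del libraries 1 to 4. Its host H13, a signal peptide peptidase gene, stood at 198, 219, 187, 208 and 214.02 CPM in female heterozygous libraries 1 to 5 and 192, 201, 197, 201.6 and 209 CPM in female del/del libraries 1 to 5. In males H13 was at 165.8, 159.8, 157 and 165 CPM in male heterozygous libraries 1 to 4 and 147, 167.1, 161 and 143 CPM in male del/del libraries 1 to 4. Neither partner separated the genotypes in either sex, with log2 fold changes over both sexes of 0.09 (SE 0.153) for Mcts2 and -0.05 (SE 0.0423) for H13. They were 0.06 (SE 0.157) and -0.06 (SE 0.0454) without male heterozygous library 2.

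Zrsr1, a retrogene of a splicing factor family, stood at 17.5, 14.3, 20.1, 15.5 and 22.6 CPM in female heterozygous libraries 1 to 5 and 18.9, 14.5, 22.4, 15.2 and 28.96 CPM in female del/del libraries 1 to 5. Male Zrsr1 values were 27.3, 22.6, 35.2 and 27.6 CPM in male heterozygous libraries 1 to 4 and 32.8, 25.8, 38.3 and 32.2 CPM in male del/del libraries 1 to 4. Its host Commd1 was at 434, 498, 479, 461 and 481 CPM in female heterozygous libraries 1 to 5 and 449, 479.8, 406, 525 and 357 CPM in female del/del libraries 1 to 5. Among males, Commd1 was at 388, 333, 371 and 368 CPM in male heterozygous libraries 1 to 4 and 402, 321, 306 and 308 CPM in male del/del libraries 1 to 4. The fold changes over both sexes were 0.17 (SE 0.131) for Zrsr1 and -0.11 (SE 0.0692) for Commd1 on the log2 scale, and all groups overlapped. Leaving out male heterozygous library 2 gave 0.12 (SE 0.130) for Zrsr1 and -0.13 (SE 0.0748) for Commd1. The pair shares 412 bases of exon on opposite strands. Blcap, the host of Nnat, stood at 18.9, 18.2, 16.1, 19.9 and 16.3 CPM in female heterozygous libraries 1 to 5 and 23.3, 16.1, 25.6, 15.3 and 29.3 CPM in female del/del libraries 1 to 5. In males Blcap was at 15.4, 21.7, 18.3 and 18.4 CPM in male heterozygous libraries 1 to 4 and 16.6, 19.98, 21.2 and 20.9 CPM in male del/del libraries 1 to 4. Blcap had a log2 fold change of 0.29 (SE 0.172) in females, or 0.17 without female del/del library 5, and 0.08 (SE 0.121) in males, or 0.17 (SE 0.123) without heterozygous library 2. Over both sexes Blcap had 0.20 (unadjusted p = 0.0945, edgeR) with and 0.24 (unadjusted p = 0.0494, edgeR) without that library. Nnat, whose values are given above, had 0.77 (SE 0.541) in females, and in males -1.68 (SE 1.04) with and 0.73 (SE 0.699) without heterozygous library 2.

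Copg2, a coatomer subunit gene that shares 912 bases of exon with Mest on the other strand, stood at 102, 108, 95.1, 106 and 94.7 CPM in female heterozygous libraries 1 to 5 and 104, 102, 94.9, 108 and 88.8 CPM in female del/del libraries 1 to 5. The male libraries had 87.6, 91.6, 80.2 and 87.5 CPM in male heterozygous libraries 1 to 4 and 87.9, 82.8, 77.6 and 79.7 CPM in male del/del libraries 1 to 4. The log2 fold change over both sexes was -0.05 (SE 0.0476) for Copg2 with all libraries and -0.04 (SE 0.0513) without male heterozygous library 2. For Mest it was -0.24 (SE 0.192) with and -0.0013 (SE 0.122) without male heterozygous library 2. Igf2r, the receptor that carries IGF2 to lysosomes, stood at 61.2, 68.6, 61.9, 51.7 and 55.7 CPM in female heterozygous libraries 1 to 5 and 68.04, 71.4, 60.8, 67.8 and 56.3 CPM in female del/del libraries 1 to 5. Male Igf2r values were 58.8, 56.2, 52.01 and 55.5 CPM in male heterozygous libraries 1 to 4 and 50.2, 54.7, 49.9 and 56.4 CPM in male del/del libraries 1 to 4. The non-coding RNA Airn, which silences Igf2r on the paternal copy in cis, was at 0.558, 0.605, 0.643, 0 and 0.766 CPM in female heterozygous libraries 1 to 5 and 1.08, 0.843, 0.695, 1.02 and 0.621 CPM in female del/del libraries 1 to 5. In males Airn was at 0.103, 0.247, 0.116 and 0.156 CPM in male heterozygous libraries 1 to 4 and 0.511, 0.0888, 0.266 and 0.308 CPM in male del/del libraries 1 to 4. Airn differed by 0.70 (SE 0.520) on the log2 scale in females and was too low to test in males, while Igf2r had 0.12 (SE 0.0948) in females and -0.07 in males both with (SE 0.0692) and without (SE 0.0836) heterozygous library 2. Over both sexes Airn had 0.73 (SE 0.395) with and 0.80 (SE 0.417) without male heterozygous library 2. Leaving out 1 library at a time gave Airn values of 0.40 to 0.88 in females and 0.53 to 0.86 over both sexes. Both lowest values were without female heterozygous library 4, where Airn was at 0 CPM. The annotated exons of the pair share 0 bases. Slc22a3, an organic cation transporter of the same domain, was at 0.418, 1.64, 0.169, 0.670 and 0.851 CPM in female heterozygous libraries 1 to 5 and 0.516, 0.0422, 0.270, 0.0924 and 0.812 CPM in female del/del libraries 1 to 5. Male libraries held Slc22a3 at 0.411, 0.741, 0.580 and 0.937 CPM in male heterozygous libraries 1 to 4 and 0.325, 0.799, 0.753 and 0.410 CPM in male del/del libraries 1 to 4. Its log2 fold change was -1.03 (SE 0.704) in females and -0.23 (SE 0.383) in males, or -0.18 (SE 0.446) without heterozygous library 2. The female value of Slc22a3 rested on single libraries, since it was -1.61 without del/del library 5 and -0.58 without heterozygous library 2, and the genotypes overlapped in both sexes.

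H19 was tested over both sexes only. It stood at 0.767, 1.04, 0, 0 and 0 CPM in female heterozygous libraries 1 to 5 and 0.206, 0, 0.0773, 0 and 0 CPM in female del/del libraries 1 to 5. In males it was at 0, 4.64, 0.174 and 0 CPM in male heterozygous libraries 1 to 4 and 0, 0.755, 0.443 and 0.205 CPM in male del/del libraries 1 to 4. The log2 fold change was -2.07 (SE 0.986, adjusted p = 0.735, edgeR) with and -0.62 (SE 1.04) without male heterozygous library 2. Of the 5 female heterozygous libraries the 2 with H19 reads, 1 and 2, were also those with the highest stroma and bone marker sums of the female libraries, 19.3 and 28.9 CPM, and the part of stromal RNA in the H19 values was not tested.

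Read by the reported parental copy, 10 of the 19 genes expressed from the paternal copy were tested over both sexes, and 7 of those 10 had a positive fold change, with a median of 0.16 on the log2 scale. Of the 30 expressed from the maternal copy 18 were tested and 8 were positive, with a median of -0.02. Over all genes 49.9% were positive, with a median of -0.00049. Without male heterozygous library 2, positive values were found for 8 of 10 paternal genes, with a median of 0.34, and for 8 of 18 maternal genes, with a median of -0.03, beside 46.9% of all genes. The genes that passed are those with enough reads, and no difference between the parental classes was tested. In females 8 of 10 paternal and 7 of 17 maternal genes were positive, and in males 4 of 9 and 9 of 17 with all libraries, or 7 of 9 and 11 of 17 without heterozygous library 2. Between the sexes, whose libraries are separate, 21 of the 30 genes tested in both had the same sign (70%, against 63.2% of all genes), and without male heterozygous library 2 there were 20 (66.7%, against 56.2%).

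The domains left out of the set were read from the same fits. Of 5 tested genes of the Snrpn cluster 3 were called higher in females (Peg12, Mkrn3 and Ndn) and 2 in males, and Peg3, the 1 tested gene of its domain, was called higher in females. In males Peg3 and Ndn were called without heterozygous library 2 and not with it. Peg12, a paternally expressed gene, rose from 3.69 ± 0.754 to 17.4 ± 1.69 CPM (SD, n = 5 each) in females (log2 fold change 2.24, adjusted p = 1.62e-05, edgeR). The SE of the female Peg12 fold change was 0.159. No test of the difference between these domains and the 53 genes was made.

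A further list of 36 transcripts of the same imprinted domains held 27 with a row and 14 that could be tested in each sex, and 0 of the 14 were called in females, in males or over both sexes. The smallest p in females was that of Tnfrsf26, a TNF receptor family gene near the Kcnq1 domain (log2 fold change -0.32, SE 0.125, adjusted p = 0.975, edgeR). Over both sexes it was that of Art5 (-0.72, SE 0.294, adjusted p = 0.615, edgeR). The medians were -0.06 in females, 0.02 in males and -0.04 over both sexes. With male heterozygous library 2 left out there were again 0 calls, the medians were 0.03 in males and -0.06 over both sexes, and Art5 was at -0.74 (SE 0.313). Of 28 factors that keep or read imprints, such as DNA methyltransferases, Polycomb proteins and ZFP57 partners, 27 had a row and 23 were tested. Smchd1 was called lower in each sex, and the other 22 were not called. Among them Tet1, an enzyme that oxidises methylated cytosine, was at -0.30 on the log2 scale (SE 0.111, edgeR adjusted p 0.529) over both sexes, and the maintenance methyltransferase gene Dnmt1 had -0.14 (SE 0.0951). The median of the 23 over both sexes was -0.07, and 6 were positive. Leaving out the same library, the median was again -0.07, 3 were positive, Tet1 was at -0.31 (SE 0.118) and Dnmt1 at -0.13 (SE 0.103).

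The authors' deposited table of females lists adjusted p-values of 0.334 for Cdkn1c and Peg10, 0.463 for Grb10 and 0.976 for Sgce, and no imprinted gene of the 31 in it is below 0.05. The authors' deposited table of males lists none below 0.05 either.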

How the data were processed

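RNA-seq libraries of 18 animals were used, 10 female and 8 male. One table of raw counts of reads for each gene was deposited by the authors for either sex, with 2 columns of group means per table, a signal that was not used here. Per the file headers, they also deposited log2 fold changes, F values (a score) and p-values per gene. The tools TopHat, Trim Galore, FastQC, bcl2fastq and edgeR 3.32.1 and the builds mm10 and GRCm38 are named in the submitters' processing notes. For the counting program, strand setting and annotation, nothing is given in the sources used here.

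Counts were fitted in R 4.3.3 with edgeR 4.0.16: filterByExpr at its defaults (minimum count 10, minimum total 15), TMM factors and the quasi-likelihood test of genotype, within each sex, over both sexes with sex as a term, and for the interaction. Positive log2 fold changes are higher in del/del, and calls needed an adjusted p (Benjamini-Hochberg over all genes tested) below 0.05. The SE is the fold change divided by the square root of F. The 56 rows without an identifier took at most 0.0846% of a library's counts and stayed in. DESeq2 1.42.0 and limma 3.58.1 (voom), RLE size factors, no filter, a stricter filter, a block of animals of nearest number and leaving out each library were alternatives, and the fits were tested on simulated data. Labels state no pairs of animals, and replicate numbers only name libraries. Intervals cover the spread between these animals and limits at 0 reads cover counting error only. Genes were named as the 6 higher and 6 lower of the smallest p in females, in males and over both sexes, the 8 of the highest level per kilobase, and the 5 nested or antisense pairs. The genes that resemble a called gene across libraries were to be listed, but none was called with all libraries. The 53 genes and all lists were chosen with earlier results of these data known.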

Additional observations from a re-analysis of the deposited data

Results flagged for a closer look

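For 35 of the imprinted genes, values in each group of 4 or 5 libraries were examined for a library far from the rest of its group, meaning that its gap to the nearest value was most of the group's range. This held for 24 of 133 groups with any spread, and chance alone gives about 1 in 20 for values that vary smoothly. That rate does not apply to genes of few reads, since in 8 of the 24 all other libraries of the group were at 0. Beside the named genes, the 35 included Igf2, Meg3, Dlk1, Plagl1, Zdbf2, Asb4, Ano1 and Dcn, all highest in male heterozygous library 2. The share flagged, and the part of that library in it, were therefore partly set by the choice of genes. Of the 24 libraries 14 were male heterozygous library 2, where the CPM were 46.4 for Nnat, 9.49 for Mest, 9.19 for Grb10, 6.67 for Peg10, 6.37 for Cdkn1c, 4.64 for H19, 3.36 for Plagl1, 3.01 for Igf2, 2.22 for Zdbf2, 2.12 for Dlk1, 1.88 for Meg3, 0.642 for Asb4, 0.593 for Dcn and 0.543 for Ano1. Its neural marker sum of 120.5 CPM is given above, and the part of that RNA in these values was not tested.

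In female heterozygous libraries, Airn was at 0 CPM in library 4, and Ano1 and Meg3 were at 0.0348 and 0.105 CPM in library 1, a level of 1 and 3 reads. In female del/del libraries, Mest was low in library 3 (3.01 CPM) and Sfmbt2 in library 1 (2.68 CPM). In male del/del libraries, Commd1 was high in library 1 (402 CPM), Nap1l4 in library 2 (201 CPM) and Asb4 in library 3 (0.0443 CPM), where Dcn was at 0 CPM. Tssc4 was low in male heterozygous library 4 (23.7 CPM).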

How the results depend on the processing

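With all 18 libraries, 0 imprinted genes were called by the edgeR quasi-likelihood test in females, in males, over both sexes and for the interaction. RLE size factors, no count filter, a filter at a minimum count of 30, limma voom and a block of animals of nearest number also gave 0 in each, and a single fit of all libraries gave 0 in each sex. DESeq2 gave 1 in females (Peg10) and 0 in the others. Leaving out each library in turn gave 0 to 0 in females, in males and for the interaction and 0 to 1 over both sexes, the 1 being Cdkn1c without male heterozygous library 2.

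Without that library, counts over both sexes were 2 with DESeq2 (Cdkn1c and Sgce), 1 with voom and 1 with RLE size factors, combinations chosen after seeing the data. The shares of all genes called in those fits are not given here, so these counts cannot be set against them. In males without it Grb10, Peg10 and Nnat turned to log2 fold changes of 0.13, 0.13 and 0.73 in edgeR, 0.14, 0.13 and 0.74 in DESeq2, 0.073, 0.086 and 0.37 in voom and 0.13, 0.13 and 0.73 with RLE size factors. Over all single libraries left out the male values ranged from -1.71 to 0.13 for Grb10, -1.05 to 0.13 for Peg10 and -2.16 to 0.73 for Nnat. H19 over both sexes turned to 0.12 in voom without that library. The cause was not tested. Mest and Ppp1r9a also turned in males, to 0.11 and 0.28. Over the alternatives that used all libraries and each library left out, 21 of 31 tested imprinted genes kept their direction in females, 17 of 30 in males, 27 of 32 over both sexes and 14 of 32 in the interaction. Nnat over both sexes was among those that turned, from -0.59 to 0.74 without male heterozygous library 2. Copg2, Ddc, Tspan32 and Zrsr1 were among those that turned in females, to 0.02, 0.04, -0.0093 and -0.03 without female del/del library 5. DESeq2 gave no adjusted p for Grb10 in males and for Grb10 and Peg10 over both sexes.

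Standard errors of 0.262, 0.313 and 0.350 on the log2 scale for Cdkn1c, Grb10 and Peg10 in females, at means of 0.872 to 3.57 CPM, limit what could be called with 5 libraries a genotype.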
